A study of Mus musculus with 17 samples.

Results

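The region described here is a 44 kb stretch of mouse chromosome 11 on the far side of the alpha-globin genes, from 32201000 to 32244999 (build mm9), between Hba-a2 and Sh3pxd2b. It holds the CTCF sites named +44 (window 32219500 to 32222499) and +48 (window 32223500 to 32226499). Its members are the entries of the R2 and alpha CTCF tables in which at least 1 of the paired fragments has its midpoint in the stretch. They number 16183 of 514959 fragment pairs seen from R2 and 29290 of 448951 seen from alpha CTCF. They involve 253 fragments of the restriction enzyme NlaIII inside the stretch. In the gene order of assembly GRCm38.p6, used for names only, Hbq1a, a theta-globin gene, and the long non-coding RNA gene Gm46275 lie between Hba-a2 and Sh3pxd2b. No mm9 annotation was used, so the exons and introns of these genes were not placed on the stretch.

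Tri-C is a chromosome conformation capture method in which a read joins a captured fragment, the viewpoint, to further fragments of the same allele. Each count is therefore a three-way contact between the viewpoint and a pair of fragments. The 10 erythroid libraries came from Ter-119+ spleen cells of female C57Bl6 mice given 3 doses of phenylhydrazine 12 h apart and sampled after 5 days, and the 7 ES libraries from the E14 line of strain 129/Ola. The labels name no edited allele in either. The libraries are repeat preparations of 3 biological replicates of each cell type, and those of a replicate were summed, which gives n = 3 against 3. No label states that the biological replicates are separate animals or cultures. The p-values below therefore cover the spread of these samples alone, which may be technical. Strain differs together with cell type, so the effects of the pair cannot be told apart, and with no expression measured the cell types could not be checked against markers.

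CTCF is a DNA-binding protein that halts the cohesin complex as it extrudes chromatin loops, and pairs of CTCF sites often mark the edges of self-interacting domains. The alpha-globin genes lie in such a domain, with the enhancers R1, R2, R3, Rm and R4 upstream of the genes, CTCF sites at -38 and -39 beyond the enhancers, and further CTCF sites including +44 and +48 beyond the genes. The genes are strongly expressed in erythroid cells and silent in ES cells. R2, a main enhancer of the cluster, was the viewpoint at 32149923 to 32152111, and the alpha CTCF viewpoint was at 32136092 to 32138888, in the CTCF -38/-39 element. The centre of CTCF +44 lies 70.0 kb from R2 and 83.5 kb from alpha CTCF.

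The replicates held 139337 to 469501 contact pairs from R2 and 129858 to 459669 from alpha CTCF. The first technical libraries of the 3 erythroid replicates stood apart from the other 14 libraries, with 1.40 to 1.65 counts per distinct fragment pair against 3.46 to 4.49. Pairs with neither fragment on chromosome 11 made up 49.98% ± 7.16 (SD, n = 3) of the erythroid R2 table and 18.3% ± 5.27 of the ES R2 table, against 26.6% ± 6.45 and 28.7% ± 4.75 in the alpha CTCF table. Levels from R2 given per 1000 pairs of the table therefore move with this share. Changes from R2 are given below on that scale and on the scale of pairs with both fragments in the surrounding 300 kb (32001000 to 32300999), and quantities within the stretch, which need neither scale, come first.

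Within the stretch, erythroid contacts lay further towards the genes than ES contacts, from both viewpoints. The stretch was divided into an 18.5 kb gene-side segment up to CTCF +44, the +44 window, a 1 kb middle, the +48 window, and an 18.5 kb far-side segment beyond +48. Seen from R2, the gene-side segment took 69.8, 65.2 and 73.8% of the stretch's contacts in the erythroid replicates and 55.1, 64.4 and 57.5% in the ES replicates. The groups did not overlap, but the highest ES value was close to the lowest erythroid value. Seen from alpha CTCF, the shares were 64.7, 64.0 and 70.1% in erythroid and 52.8, 58.9 and 53.4% in ES cells, again without overlap. The difference between the group means was 10.6 percentage points from R2 and 11.2 from alpha CTCF. Each gave p = 0.1 in an exact two-sided permutation test, the smallest p that 3 against 3 allows.

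The far-side segment showed the reverse. From R2 it took 12.3, 14.5 and 11.5% of the stretch's contacts in erythroid and 27.9, 21.7 and 27.3% in ES cells. From alpha CTCF it took 16.2, 17.3 and 14.8% in erythroid and 28.1, 26.6 and 27.9% in ES cells. Every erythroid replicate was below every ES replicate from both viewpoints (exact permutation p = 0.1 for each). Because both segments have the same length, their ratio compares them per kb. A gene-side kb had 5.54 ± 0.973 (SD, n = 3) times the contacts of a far-side kb from R2 in erythroid cells, against 2.35 ± 0.539 times for ES cells, and 4.15 ± 0.543 against 2.00 ± 0.183 times from alpha CTCF.

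The 2 CTCF windows were not alike in this respect. From alpha CTCF, the +44 window had 1.78, 1.57 and 1.96 times the contacts of the equally long +48 window in erythroid replicates and 1.41, 0.817 and 1.14 times in ES replicates, with no overlap (exact permutation p = 0.1). From R2 the same ratio was 1.83 ± 0.866 in erythroid cells against 1.64 ± 0.261 in ES cells, with overlapping groups (exact permutation p = 0.8). The wide erythroid spread from R2 came from values of 2.80, 1.13 and 1.57.

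**Figure D1:**
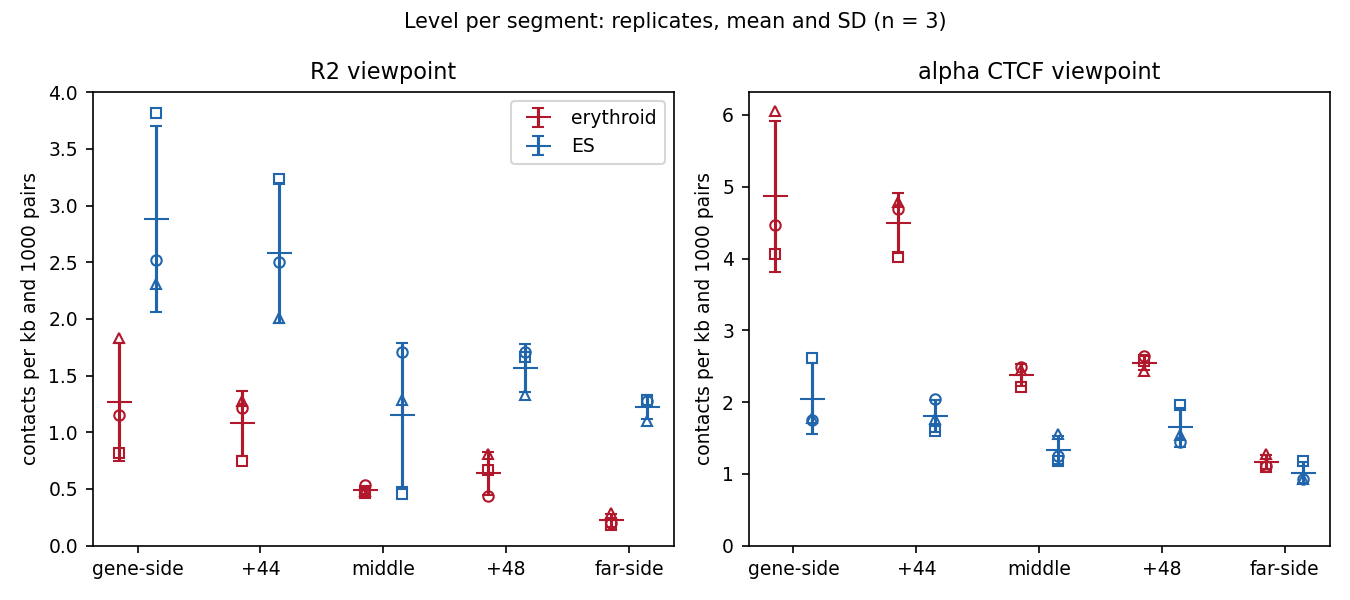
Contacts per kb and 1000 pairs of the table in the 5 parts of the stretch, from each viewpoint. Open circles, squares and triangles are replicates 1, 2 and 3, and the bars give the mean and SD (n = 3). The erythroid mean from alpha CTCF falls from 4.86 in the gene-side segment and 4.50 at +44 to 2.55 at +48 and 1.16 in the far-side segment, while the ES means lie between 2.05 and 1.01.

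Seen from the alpha CTCF viewpoint, the stretch had more contacts in erythroid cells, and the bins called lay among its first 11 bins of 2 kb, up to the end of CTCF +44. Pairs touching the stretch were 9.44, 8.62 and 11.03% of all pairs in the erythroid replicates and 4.60, 5.33 and 4.87% in the ES replicates. Of the 22 bins, which all passed the minimum of 50 counts, 9 rose and none fell at a Benjamini-Hochberg adjusted p under 0.05 in edgeR's quasi-likelihood test over all 150 bins of the window. The background was a rise in 8.0% of all bins tested. The median log2 change (erythroid over ES) was 0.65 in the stretch and -0.31 over all bins. Without erythroid replicate 1 the count was 5.

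The largest rise was in the bin from 32203000 to 32204999, in the gene-side segment near the genes. It had 6.52, 5.94 and 6.78 contacts per 1000 pairs in erythroid and 2.40, 1.81 and 2.04 in ES replicates. Its log2 change was 1.62 ± 0.20 (SE; edgeR adjusted p = 0.00140). The next was the bin that starts at 32201000, with 25.6, 22.2 and 43.1 against 8.78, 17.7 and 8.26 contacts per 1000 pairs. Its groups were also apart, though less widely, and its change of 1.39 ± 0.35 (edgeR adjusted p = 0.0200) was not called without erythroid replicate 1 (edgeR adjusted p = 0.0609) or without ES replicate 1 (edgeR adjusted p = 0.0507). The bin that starts at 32213000 had 8.77, 7.58 and 8.32 against 3.09, 3.24 and 3.22, with a log2 change of 1.37 ± 0.19 (edgeR adjusted p = 0.00168).

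At CTCF +44 the bin that starts at 32219000 had 7.12, 6.97 and 8.79 contacts per 1000 pairs in erythroid and 3.18, 2.99 and 2.75 in ES replicates. Its log2 change was 1.36 ± 0.20 (edgeR adjusted p = 0.00168). The following bin, from 32221000, had 8.58, 6.53 and 7.42 against 3.91, 2.60 and 3.93, a change of 1.11 ± 0.23 (edgeR adjusted p = 0.0107), which was not called without erythroid replicate 1 (edgeR adjusted p = 0.0609). All erythroid replicates exceeded all ES replicates in both bins. At CTCF +48, 4 kb on, the separation was smaller. The bin from 32223000 had 5.18, 4.26 and 4.09 against 1.80, 3.33 and 3.06 (log2 change 0.73 ± 0.25, edgeR adjusted p = 0.0555), and the bin from 32225000 had 4.32, 5.07 and 4.58 against 3.29, 3.41 and 2.66 (0.58 ± 0.20, edgeR adjusted p = 0.0547). Neither was called on this scale, and both were called when scaled to the window (edgeR adjusted p = 0.0218 and 0.0419).

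Summed per region, the gene-side segment rose by a log2 change of 1.25 ± 0.25 (edgeR adjusted p = 0.00522), CTCF +44 by 1.32 ± 0.21 (edgeR adjusted p = 0.00221), the middle by 0.84 ± 0.18 (edgeR adjusted p = 0.00561) and CTCF +48 by 0.63 ± 0.21 (edgeR adjusted p = 0.0306). These were the only rises on this scale among the 20 regions and classes tested, a background of 20.0%. Scaled to the window, the part of the gene cluster outside the Hba gene windows also rose, by 0.76 (edgeR adjusted p = 0.00170). The call at +48 did not hold without ES replicate 1, ES replicate 3 or erythroid replicate 1, where the change lay between 0.54 and 0.60. The far-side segment had 20.6, 20.4 and 23.6 contacts per 1000 pairs in erythroid and 17.2, 21.9 and 17.1 in ES replicates, which overlapped (log2 change 0.20 ± 0.22, edgeR adjusted p = 0.471). None of the 9 bins beyond the +48 bins was called in edgeR on this scale, 1 was when scaled to the window, and DESeq2 with its own size factors called 6, all higher. Over all 150 bins DESeq2 called 31 higher and 19 lower. Scaled to the window, 13 of the 22 bins rose, against a background of 12.0%.

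**Figure D2:**
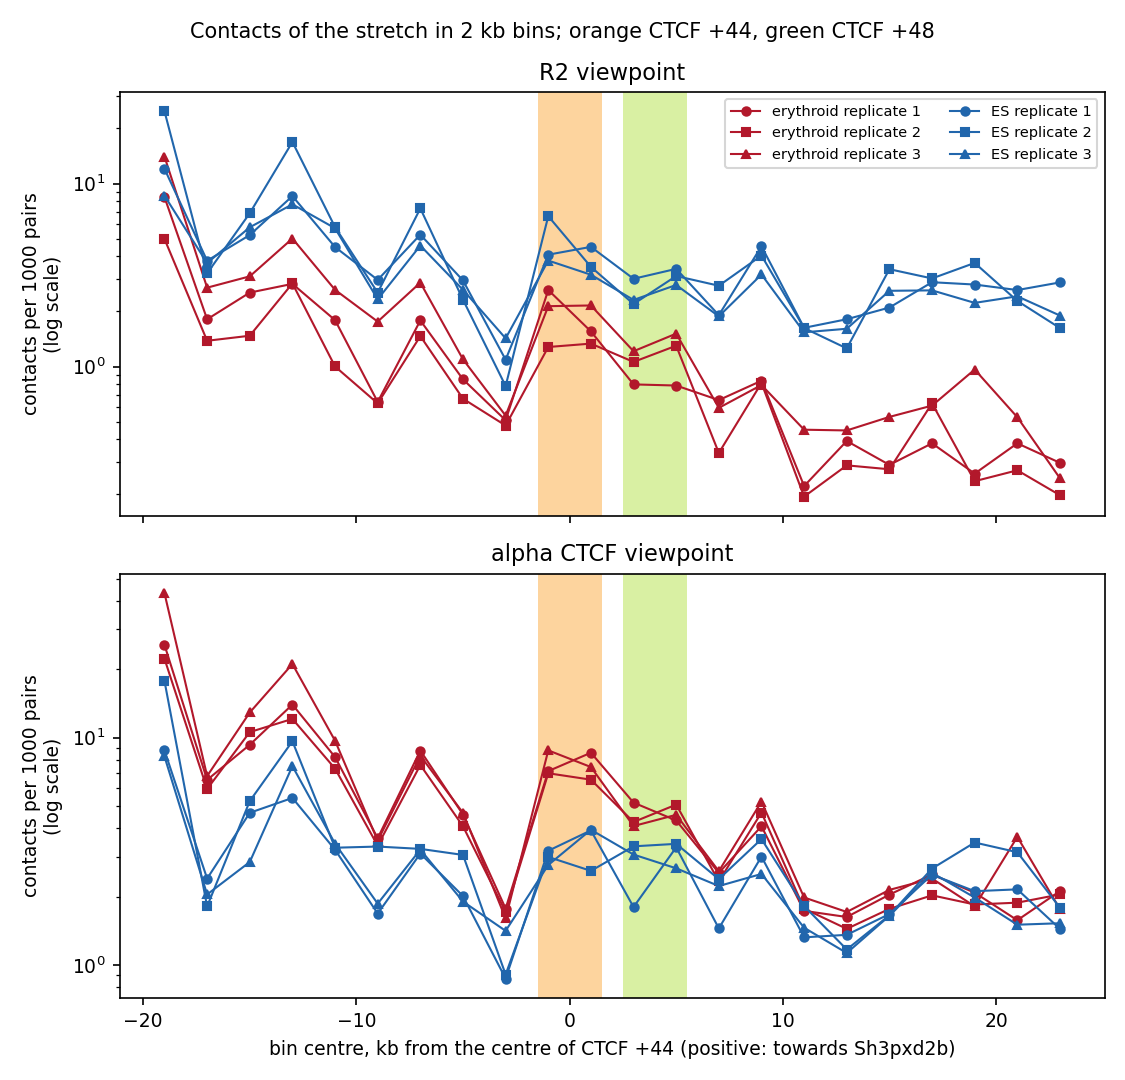
Contacts per 1000 pairs of the table in each of the 22 bins of the stretch, on a log scale, against the distance of the bin centre from the centre of CTCF +44. Each line is a replicate (red erythroid, blue ES), with the +44 window in orange and the +48 window in green. From alpha CTCF the erythroid lines lie above the ES lines up to +48. Beyond it they lie above in 3 of the 9 bins and mix with the ES lines in the others. From R2, on this scale, they lie below the ES lines in 21 of the 22 bins, all but the first. Over all 150 bins, the groups did not overlap, in either direction, in 136 from R2 and 72 from alpha CTCF. The separation from R2 is thus not particular to the stretch.

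Seen from R2, the stretch took a smaller part of the table in erythroid cells, with the larger loss beyond CTCF +48. Pairs touching the stretch were 2.21, 1.77 and 3.18% of all pairs in erythroid and 6.28, 6.92 and 5.64% in ES replicates. As a share of pairs with both fragments on chromosome 11 they were 7.22, 6.83 and 7.64% against 9.93, 8.99 and 8.45%, still without overlap but closer. On the scale of the table, 21 of the 22 bins fell and none rose in edgeR's quasi-likelihood test, against a background of falls in 85.3% of all 150 bins. The median log2 change of the stretch, -1.58, was smaller in size than that of all bins, -2.31.

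The 9 bins beyond the +48 bins all fell, by log2 changes between -3.11 and -2.04. The bin from 32243000, at the far end, had 0.298, 0.198 and 0.245 contacts per 1000 pairs in erythroid and 2.88, 1.62 and 1.90 in ES replicates (log2 change -3.11 ± 0.45, edgeR adjusted p = 6.12e-05). The bin from 32235000 had 0.290, 0.274 and 0.530 against 2.10, 3.40 and 2.59 (-2.88 ± 0.43, edgeR adjusted p = 6.38e-05). The bin from 32241000 had 0.380, 0.271 and 0.528 against 2.62, 2.28 and 2.42 (-2.63 ± 0.42, edgeR adjusted p = 8.12e-05). In all 3 the highest erythroid value was far below the lowest ES value. All 9 of these bins also fell on the scale of the window, by log2 changes of -2.12 to -0.99. In all, 11 of the 22 bins fell on that scale, against a background of 65.3%. TMM factors called 3 of the 9 and DESeq2 called 2, all lower. Over all 150 bins, falls called numbered 30 with TMM factors and 22 with DESeq2.

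The part of the stretch up to +48 depended on the scale. The +44 bins had 2.62, 1.28 and 2.14 contacts per 1000 pairs in erythroid against 4.08, 6.63 and 3.79 in ES replicates (from 32219000, log2 change -1.26 ± 0.34, edgeR adjusted p = 0.00224) and 1.56, 1.33 and 2.16 against 4.51, 3.50 and 3.17 (from 32221000, -1.15 ± 0.32, edgeR adjusted p = 0.00319). The +48 bins had 0.798, 1.06 and 1.21 against 3.02, 2.20 and 2.31 (from 32223000, -1.29 ± 0.36, edgeR adjusted p = 0.00319) and 0.787, 1.30 and 1.51 against 3.42, 3.12 and 2.79 (from 32225000, -1.37 ± 0.35, edgeR adjusted p = 0.00170). Scaled to the window, the changes of these 4 bins lay between -0.33 and -0.15 and none was called, and with TMM factors or DESeq2, which centre on the bulk of the bins, all 4 were positive. Of the 13 bins up to and including +48, 12 fell on the scale of the table, 2 fell when scaled to the window, and with DESeq2 9 rose. Over all 150 bins, 44 rose with DESeq2. The direction of the +44 and +48 bins from R2 thus turned with the scale. Fitted as whole regions, +44 and +48 stayed negative with TMM factors (-0.50 and -0.55) and with DESeq2 (-0.35 and -0.40), and none of these was called.

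Summed per region from R2, the gene-side segment changed by -1.19 ± 0.28 (edgeR adjusted p = 0.000131), +44 by -1.26 ± 0.35 (edgeR adjusted p = 0.00119), +48 by -1.30 ± 0.38 (edgeR adjusted p = 0.00175) and the far-side segment by -2.45 ± 0.32 (edgeR adjusted p = 2.97e-10), with falls in 70.0% of the 20 regions and classes. Scaled to the window the same 4 changes were -0.15, -0.20, -0.26 and -1.43, and only the far-side segment was called among them (edgeR adjusted p = 1.67e-10). The fall was not particular to the far-side segment. On the scale of the window, the chromatin from 32245000 to 32300999 and that from 32001000 to 32100999 each changed by -1.83 (edgeR adjusted p = 6.79e-17 and 3.83e-20). The flank from 32101000 to 32134999 (-0.72, edgeR adjusted p = 1.41e-05) and CTCF -38/-39 (-0.53, edgeR adjusted p = 0.00203) were also called lower. For comparison on the scale of the window, Hba-a1 and Hba-a2, the adult alpha-globin genes, rose by 1.95 and 1.76. Their near-identical copies make the split of counts between them uncertain. The lower level from R2 moved together with fewer counts per distinct pair in the stretch, 3.03 ± 0.313 in erythroid and 4.31 ± 0.514 in ES cells. From alpha CTCF, where the erythroid level was higher, this measure was 3.54 ± 0.440 against 4.01 ± 0.299, with overlapping groups. The erythroid values include the first technical libraries, which were low in it, and a link to the level was not tested. With each pair counted once per library, the changes of the gene-side segment, +44, +48 and the far-side segment from R2 were -1.14, -1.09, -1.39 and -2.30, and all 4 were called.

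**Figure D3:**
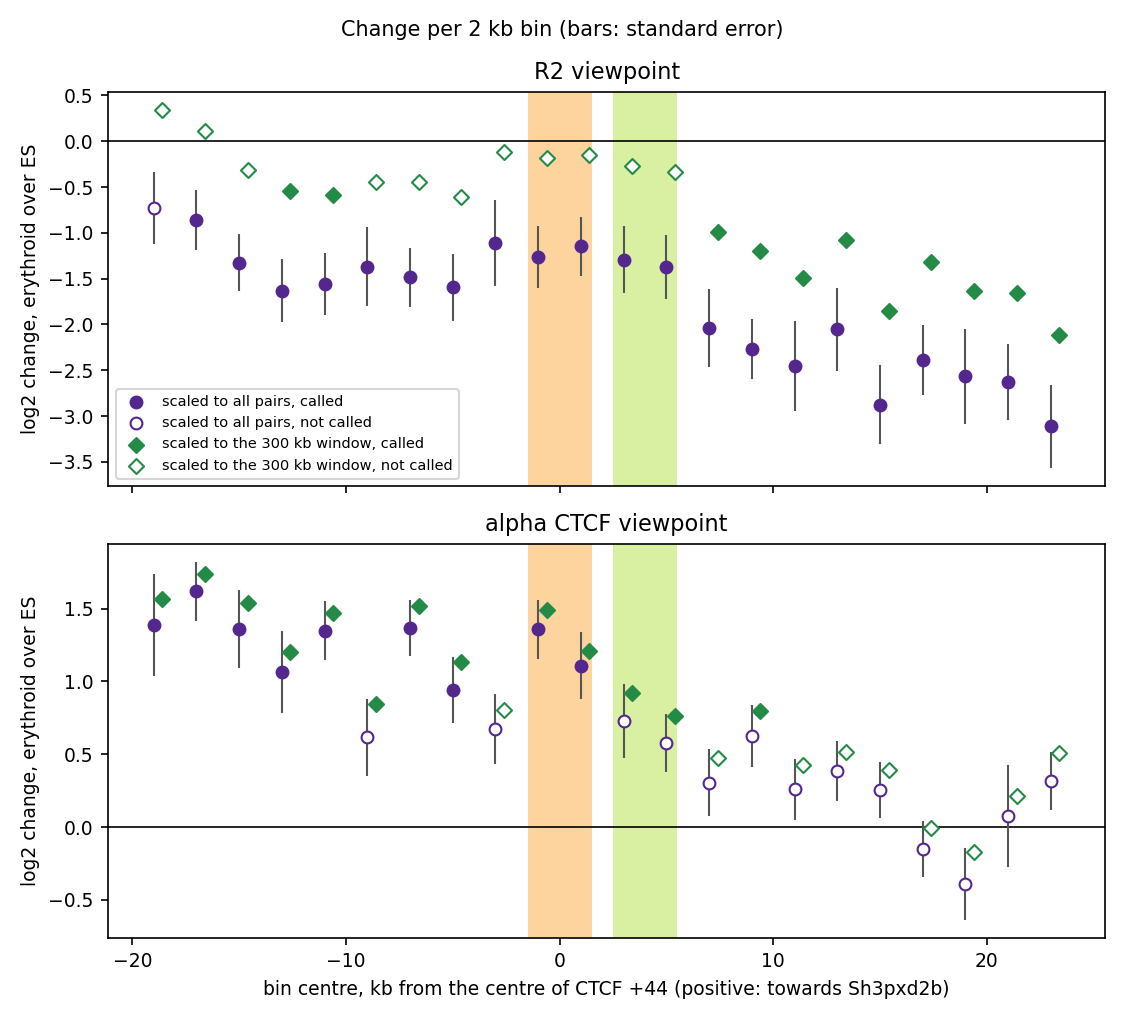
Log2 change per 2 kb bin, erythroid over ES, against the distance of the bin centre from the centre of CTCF +44, for each viewpoint. Purple circles are scaled to all pairs of the table with their standard error, and green diamonds to pairs within the 300 kb window, filled where the edgeR adjusted p was under 0.05. From R2 the window-scaled values lie between -0.61 and 0.34 up to the +48 bins and between -2.12 and -0.99 beyond them.

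The change differed between the viewpoints along the whole stretch. A test of the cell type by viewpoint interaction, fitted over both tables with the replicate in the model, called all 22 bins, with the change from alpha CTCF above that from R2 by 1.78 to 3.40 (log2). The same direction was called in 78.0% of all 150 bins, whose median was 2.10, so the stretch is within the general pattern of the window. On the scale of the window, 21 of the 22 bins were called, against 54.7% of all bins, with differences of 0.88 to 2.498. TMM factors, which take out the difference of the typical bin, left 1 bin called.

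Pairs across the gene cluster joined the stretch to the chromatin upstream of it, and among region pairs the gains called in erythroid cells, from alpha CTCF, were with the flank beyond the CTCF -38/-39 element. That flank, the upstream near flank (32101000 to 32134999), lies outside the domain on the enhancers' side. Seen from alpha CTCF, it paired with the gene-side segment at 7.69, 6.14 and 7.51 pairs per 1000 in erythroid and 2.24, 1.51 and 2.48 in ES replicates, from 7129 and 1492 counts in all. The groups were far apart, with a log2 change of 1.77 ± 0.30 (edgeR adjusted p = 0.00177). Its pairs with +44 were 1.45, 1.36 and 1.24 against 0.567, 0.4004 and 0.579 per 1000 (log2 change 1.39 ± 0.33, edgeR adjusted p = 0.0148). Its pairs with +48 were 0.998, 0.872 and 0.716 against 0.353, 0.300 and 0.392 per 1000 (1.30 ± 0.36, edgeR adjusted p = 0.0269). For comparison, pairs of the gene-side segment with other chromosomes rose by as much, 1.78 ± 0.29 (edgeR adjusted p = 0.00177), so the gain was not particular to the flank on this scale. The pairs with the near flank were the only 3 calls among the 47 pairs across that passed the minimum of 30 counts, of 60 possible, and rises made up 6.74% of all 193 region pairs from alpha CTCF. With each fragment pair counted once 5 rose, the further 2 being the gene-side segment with the remainder of the enhancer side (0.83, edgeR adjusted p = 0.0362) and of the gene cluster (0.89, edgeR adjusted p = 0.0395). Among 290 tested pairs of 4 kb bins across, 5 rose and none fell, where rises made up 0.619% of 1131 bin pairs. All 5 joined bins of that flank to the bins from 32201000 or 32205000. Scaled to the window 8 rose, 1 of them outside the flank, between the neighbouring bins from 32197000 and 32201000. Without erythroid replicate 1 only the gene-side pair was called, and the call of +48 was also lost without ES replicate 1, ES replicate 3 or erythroid replicate 2. When scaled to pairs touching the stretch, the change of the gene-side pair was 0.78 (edgeR adjusted p = 0.0483), and those of +44 and +48 were 0.41 and 0.34 and not called.

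From R2, 17 of 49 tested pairs across fell and none rose, against falls in 39.4% of all 198 region pairs. Without ES replicate 1 the count was 11, and scaled to the window it was 4. The 3 largest falls without overlap all involved the far-side segment. With R3, an enhancer next to R2, it had 0.034, 0.017 and 0.019 pairs per 1000 in erythroid and 0.575, 0.423 and 0.361 in ES replicates (23 against 384 counts; log2 change -4.27 ± 0.56, edgeR adjusted p = 1.03e-05). With Rm, another enhancer of the cluster, it had 15 against 142 counts (-3.69 ± 0.76, edgeR adjusted p = 0.000570), and with Hba-x, the embryonic zeta-globin gene, 11 against 101 counts (-3.60 ± 1.03, edgeR adjusted p = 0.00714). The pair with Hba-x was not called when scaled to the window, and those with R3 and Rm were. The pair of the gene-side segment with the upstream near flank stood at 0.625, 0.459 and 0.837 per 1000 in erythroid and 1.08, 0.574 and 0.891 in ES replicates and was not called (-0.41 ± 0.36, edgeR adjusted p = 0.364). Its sign turned when scaled to the window (0.53, edgeR adjusted p = 0.404).

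The observed counts were also set against an expected count, which for each replicate combines how often either bin was contacted at all with how often bins that far apart paired. A value of 1 means that a pair occurs as often as these give. Pairs of fragments within the same 2 kb bin are left out of both counts. Seen from R2, the gene-side segment and the upstream near flank paired at 2.73, 2.48 and 2.00 times the expected count in erythroid and at 0.693, 0.674 and 0.716 times in ES replicates. The erythroid values were all above 1 and the ES values all below it. The log2 difference was 1.79 ± 0.24 (edgeR adjusted p = 0.000312), and it was called under every one of the 13 alternatives run, with log2 differences of 1.49 to 1.91 and edgeR adjusted p of 5.31e-12 to 0.00854. Seen from alpha CTCF the same pair stood at 1.44, 1.36 and 1.52 times expected in erythroid and 1.06, 1.07 and 0.910 times in ES replicates (0.51 ± 0.07, edgeR adjusted p = 0.000312). This call was lost with the first technical replicates alone (0.19, edgeR adjusted p = 0.778).

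With +44 and +48 in place of the gene-side segment, the pairs with the upstream near flank seen from R2 were 2.12 ± 0.741 and 1.27 ± 0.144 times expected in erythroid and 1.04 ± 0.392 and 0.686 ± 0.281 times in ES cells, and neither difference was called (edgeR adjusted p = 0.159 and 0.417). With each fragment pair counted once, the difference at +44 was 1.34 and was called (edgeR adjusted p = 0.000731), and that at +48 was 0.95 and was not (edgeR adjusted p = 0.0947). The far-side segment with the same flank stood at 2.73, 3.53 and 1.49 times expected in erythroid and 0.636, 0.978 and 0.753 times in ES replicates (log2 difference 1.70 ± 0.39, edgeR adjusted p = 0.0129). This call was lost under 4 of 13 alternatives, among them without ES replicate 1 (edgeR adjusted p = 0.0601) and without ES replicate 3 (edgeR adjusted p = 0.0638). The gene-side segment with the upstream far flank (32001000 to 32100999) was 1.93 ± 0.417 against 1.01 ± 0.141 times expected (0.92 ± 0.27, edgeR adjusted p = 0.0403), which was not called under 8 of 13 alternatives, among them leaving out either of erythroid replicates 1 and 2 or ES replicates 1 and 3. In the other direction, the far-side segment with R3 stood at 0.464 ± 0.180 times expected in erythroid and 1.76 ± 0.478 times in ES cells (-1.95 ± 0.48, edgeR adjusted p = 0.0166). That call was lost under 4 of 13 alternatives, among them without ES replicate 1 or erythroid replicate 3. Among 49 pairs across from R2, 3 rose and 1 fell against expected, where 6.96% of all 158 pairs rose and 5.06% fell. Among 47 from alpha CTCF, 1 rose and none fell, where 2.61% of all 153 pairs rose and 1.96% fell.

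**Figure D4:**
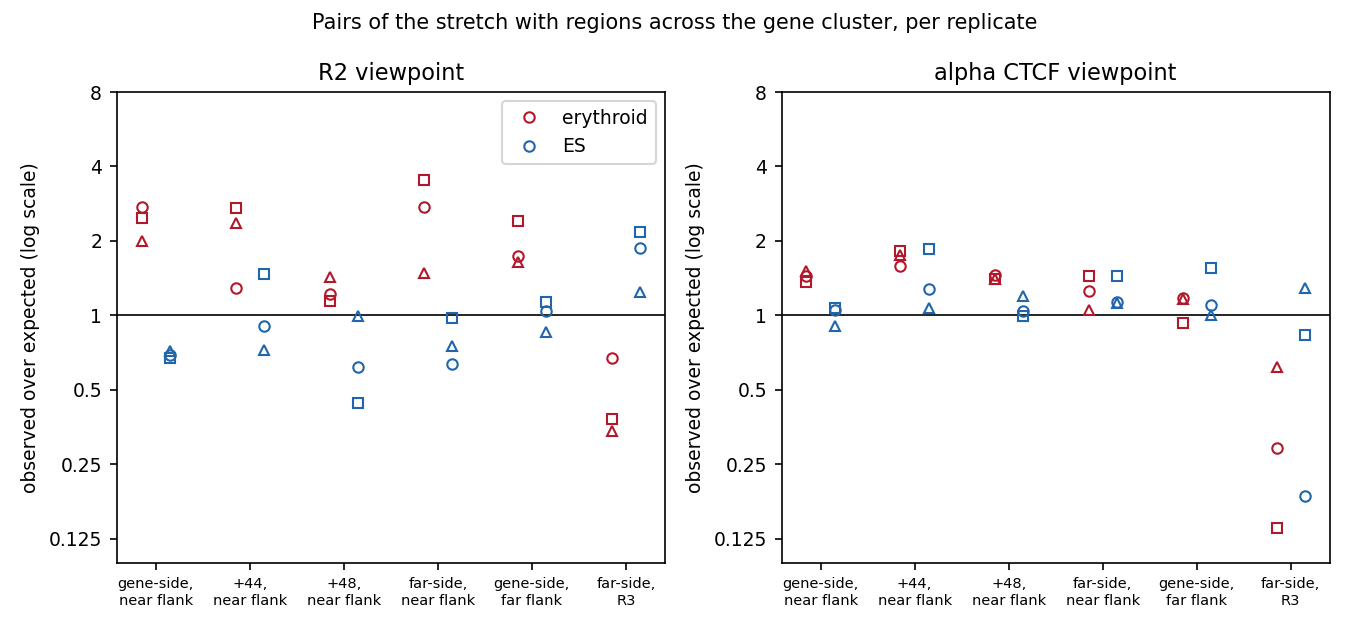
Observed over expected count, on a log scale, of pairs between parts of the stretch and regions across the gene cluster, from each viewpoint. Circles, squares and triangles are replicates 1, 2 and 3, red erythroid and blue ES, and the line marks 1. From R2 the gene-side segment with the upstream near flank lies between 2.00 and 2.73 in erythroid and between 0.674 and 0.716 in ES replicates.

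The upstream partners of the gene-side segment show where these pairs fell, as a description without a test. From alpha CTCF, the 4 kb bin from 32125000 held 5.27% ± 1.33 (SD, n = 3) of the segment's partners between 32001000 and 32200999 in erythroid and 1.19% ± 0.249 in ES cells. The bin from 32117000 held 4.52% ± 1.15 against 1.13% ± 0.433. The bin from 32133000, next to the viewpoint, held 13.8% ± 1.28 against 12.7% ± 2.61, within the SD of the ES value. From R2, the bin from 32117000 held 2.46% ± 1.64 against 0.752% ± 0.0545, with a wide erythroid spread. The bin from 32185000, just beyond the Hba-a1 window, held 7.39% ± 0.574 from R2 in erythroid and 1.73% ± 0.924 in ES cells.

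**Figure D5:**
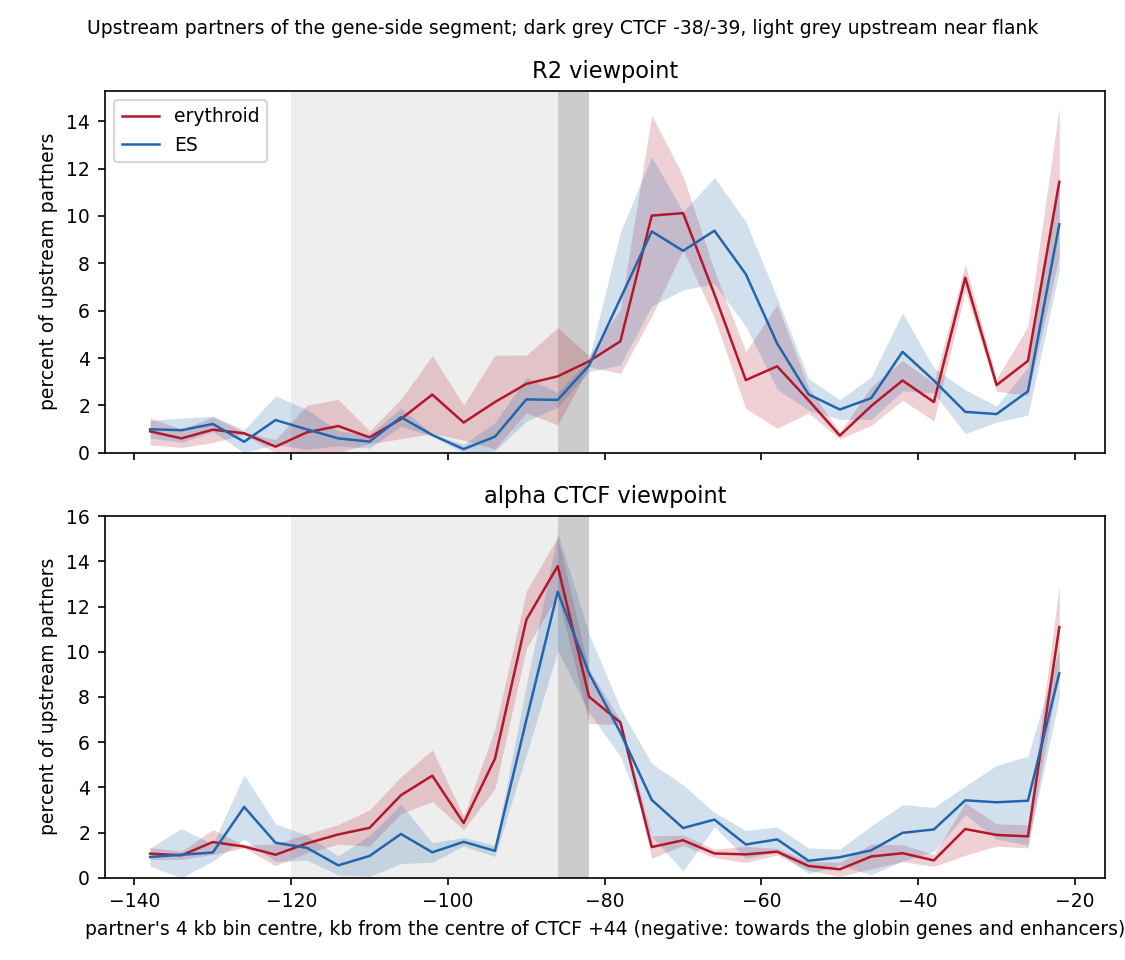
Share of the gene-side segment's upstream partners in each 4 kb bin, in percent, against the distance of the bin centre from the centre of CTCF +44, for each viewpoint. Lines are means of 3 replicates and bands 1 SD (red erythroid, blue ES), with the CTCF -38/-39 element in dark grey and the upstream near flank in light grey. From alpha CTCF the erythroid mean is above the ES mean in 8 of the 8 bins within the near flank, without overlap of the replicates in 6. From R2 it is above in 6 of the 8, without overlap in 1. No such share is given for the other upstream bins.

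Over all of the stretch, partners outside it were sorted into 8 classes. From alpha CTCF the upstream near flank gave 20.8, 20.0 and 19.4% of partners in erythroid and 16.3, 16.4 and 15.2% in ES replicates, and the enhancer side gave 9.37, 8.91 and 10.1% against 16.5, 13.2 and 15.1%. From R2 the near flank gave 7.60, 7.67 and 7.61% against 5.41, 4.38 and 4.73%, and the enhancer side 19.3, 19.4 and 17.1% against 24.7, 27.0 and 26.8%. The gene cluster itself gave 14.2, 14.8 and 16.9% against 10.9, 13.1 and 10.1% from R2, and 7.56, 6.30 and 9.91% against 10.1, 8.88 and 12.3% from alpha CTCF, where the groups overlapped. The upstream far flank gave 3.57% ± 0.755 against 6.32% ± 1.34 from R2 and 6.37% ± 0.793 against 10.1% ± 1.02 from alpha CTCF. The chromatin beyond the stretch, up to 32300999, gave 1.39% ± 0.476 against 3.99% ± 0.695 and 2.40% ± 0.474 against 4.28% ± 0.530. In both classes every erythroid replicate was below every ES replicate from both viewpoints. Other chromosomes gave 24.6% ± 1.58 against 15.8% ± 4.09 from R2 and 22.3% ± 2.17 against 15.5% ± 4.37 from alpha CTCF. In exact permutation tests no class had a p below the smallest possible 0.1, and 0.136 was the lowest after Benjamini-Hochberg adjustment over the 15 comparisons.

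Pairs of +44 or +48 with single elements had low counts, and none was called on the counts as deposited. From R2 all 10 pairs with CTCF -38/-39, R1, R3, Hba-a1 and Hba-a2 were tested, on 12 to 152 counts per cell type from 11 to 56 distinct pairs, and none was called in edgeR (lowest adjusted p = 0.0580; 1 had an unadjusted p under 0.05) or in DESeq2. With each fragment pair counted once, +44 with R3 (-1.90, edgeR adjusted p = 0.00326) and +48 with R1 (-1.38, edgeR adjusted p = 0.0121) were called lower. From alpha CTCF 8 of 10 pairs with R1, R2, R3, Hba-a1 and Hba-a2 passed the minimum, on 8 to 70 counts, and none was called in edgeR (lowest adjusted p = 0.241; 0 had an unadjusted p under 0.05) or in DESeq2. The pair of both domain edges, +44 with -38/-39 seen from R2, had 37 and 64 counts and stood at 2.04 ± 0.979 times expected in erythroid and 1.30 ± 0.0958 times in ES cells. Its log2 difference was 0.62 ± 0.76 (edgeR adjusted p = 0.645), with a sign that turned when the first technical replicates were used alone. CTCF +44 with +48 had 62 against 48 counts from R2 and 104 against 41 from alpha CTCF, and neither was called (edgeR adjusted p = 0.982 and 0.588). The contact of the gene-side segment, R2 and CTCF -38/-39 was seen from both viewpoints. It had 169 erythroid and 246 ES counts from R2 (log2 change -0.69 ± 0.57, edgeR adjusted p = 0.327) and 208 and 111 from alpha CTCF (0.63 ± 0.82, edgeR adjusted p = 0.680). From R2 the sign turned when scaled to the window (0.19, edgeR adjusted p = 0.864), and also to chromosome 11 or to pairs touching the stretch, with TMM factors and with DESeq2. Against expected this contact from R2 stood at 3.24, 1.41 and 1.89 times in erythroid and 1.12, 0.385 and 0.857 times in ES replicates, without overlap. Its log2 difference of 1.43 ± 0.48 was not called (edgeR adjusted p = 0.0759), but with each fragment pair counted once it was (1.16, edgeR adjusted p = 0.00118). From alpha CTCF the same contact stood at 0.913, 1.26 and 0.642 times expected in erythroid and 0.773, 0 and 0.942 times in ES replicates, which overlapped. That difference of 0.65 ± 0.82 was not called (edgeR adjusted p = 0.816), nor was it with each fragment pair counted once (0.26, edgeR adjusted p = 0.785).

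Pairs with both fragments inside the stretch made up 38.0% ± 6.95 (SD, n = 3) of pairs touching it in erythroid and 41.7% ± 14.6 in ES cells from R2, and 38.9% ± 5.28 against 37.8% ± 14.6 from alpha CTCF. Directly neighbouring fragments accounted for 55.5% ± 0.811 and 53.2% ± 0.824 of these from R2 and 52.9% ± 1.72 and 51.9% ± 1.40 from alpha CTCF. Neighbouring fragments can stay joined without digestion, and their part in the results below was not tested beyond leaving them out. Pairs at least 4 kb apart numbered 5.03, 4.10 and 4.60 per 1000 pairs in erythroid and 2.54, 1.97 and 2.15 in ES replicates from alpha CTCF. From R2 they numbered 0.772, 0.646 and 1.18 against 2.90, 1.98 and 2.83. Both differences were without overlap on the scale of the table, upward from alpha CTCF and downward from R2 (exact permutation p = 0.1 each). From R2 this scale moves with the share of pairs off chromosome 11, and the pairs at least 4 kb apart were not scaled to the window. As a part of pairs inside the stretch from R2, those 4 to 16 kb apart were 7.28% ± 1.86 in erythroid and 8.60% ± 4.46 in ES cells. Those 16 to 44 kb apart were 2.49% ± 0.157 and 2.73% ± 1.71. In both classes the groups overlapped (exact permutation p = 0.7 each).

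From alpha CTCF 2 of 62 tested pairs of 4 kb bins inside the stretch rose and none fell, where rises made up 0.619% of 1131 bin pairs. The bins from 32201000 and 32213000 paired 280 times in erythroid and 25 times in ES cells (log2 change 3.16 ± 0.71, edgeR adjusted p = 0.0243), and the bins from 32205000 and 32221000, the latter holding parts of +44 and +48, 251 and 18 times (3.10 ± 0.74, edgeR adjusted p = 0.0326). Neither was called without any single erythroid replicate, without ES replicate 1 or without the first erythroid libraries. On the scale of the window, 10 inside pairs rose, against 1.77% of all. By region, +44 with itself changed by 1.48 ± 0.33 (edgeR adjusted p = 0.0113), +44 with the gene-side segment by 1.73 ± 0.39 (edgeR adjusted p = 0.0113) and the gene-side segment with itself by 1.24 ± 0.36 (edgeR adjusted p = 0.0368). With each fragment pair counted once, +44 with itself (0.54, edgeR adjusted p = 0.184) and the gene-side segment with itself (0.64, edgeR adjusted p = 0.112) were not called, while +44 with the gene-side segment was (1.78, edgeR adjusted p = 0.00225). Scaled to pairs touching the stretch, none of these 3 was called, with changes of 0.49, 0.27 and 0.73 in that order (edgeR adjusted p = 0.214, 0.534 and 0.1505). The gene-side with the far-side segment, across both CTCF windows, had 0.972, 0.560 and 0.977 pairs per 1000 in erythroid and 0.520, 0.531 and 0.335 in ES replicates (0.86 ± 0.38, edgeR adjusted p = 0.157).

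From R2 21 of 49 tested bin pairs inside the stretch fell and none rose, where falls made up 34.0% of 910 bin pairs. Of those scaled to the window, 7 inside the stretch fell, as did 100 of all 910 (11%). The largest falls lay at or beyond +48. The bins from 32233000 and 32241000 paired 0 times in erythroid and 51 times in ES cells, which is at least 22.2-fold lower against a floor of 3 counts over the erythroid group, and those from 32225000 and 32233000 paired 0 and 46 times, at least 20.0-fold lower. The ES counts of these pairs came from 6 and 12 distinct pairs counted per library. The bins from 32233000 and 32237000 paired 12 and 147 times (log2 change -4.04 ± 0.85, edgeR adjusted p = 0.000360). Leaving out erythroid replicate 1 or 2 brought the number of calls to 12 and 13. By region, the far-side segment with itself changed by -2.75 ± 0.36 (edgeR adjusted p = 1.03e-05) and with the gene-side segment by -1.62 ± 0.52 (edgeR adjusted p = 0.0148). The comparison with expected leaves out pairs within a 2 kb bin. It thus covers only part of the pairs behind the change of -2.75, with 190 erythroid and 901 ES counts. Against expected the far-side segment with itself was higher, at 3.22 ± 1.48 times in erythroid and 1.38 ± 0.180 times in ES cells (1.21 ± 0.33, edgeR adjusted p = 0.0301). This call was lost under 7 of 13 alternatives. Among them were leaving out neighbouring fragments (edgeR adjusted p = 0.123), erythroid replicate 2, ES replicate 1 or ES replicate 3. The gene-side segment with itself was 2.15 ± 0.176 against 1.42 ± 0.0952 times expected (0.59 ± 0.15, edgeR adjusted p = 0.0211). This call was lost under 6 of 13 alternatives. Among them were leaving out pairs of Hba-a1 with Hba-a2 (edgeR adjusted p = 0.0742), erythroid replicate 1, ES replicate 1 or ES replicate 3. From alpha CTCF the gene-side segment with itself went the other way, at 1.06, 1.13 and 1.04 times expected in erythroid and 1.26, 1.47 and 1.21 times in ES replicates, without overlap. The log2 difference of -0.29 ± 0.09 was not called (edgeR adjusted p = 0.0958), and was with each fragment pair counted once (-0.30, edgeR adjusted p = 0.0251).

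No single fragment dominated the CTCF windows. The erythroid contacts of +44 from alpha CTCF were led by the 183 bp fragment at 32219790 to 32219972, with 1.22 ± 0.124 (SD, n = 3) contacts per 1000 pairs in erythroid against 0.514 ± 0.182 in ES cells, and the 114 bp fragment at 32221761 to 32221874, with 1.23 ± 0.144 against 0.498 ± 0.1250. They held 9.13 and 8.79% of the window's erythroid contacts, and their replicate groups did not overlap. At +48 the 87 bp fragment at 32225058 to 32225144 led, with 0.732 ± 0.116 against 0.413 ± 0.161, and held 9.65%. The 506 bp fragment at 32224404 to 32224909 followed with 0.714 ± 0.234 against 0.428 ± 0.145, and its groups overlapped. In ES cells the leading fragments of +44 were at 32220904 to 32221099, with 0.778 ± 0.156 in erythroid and 0.548 ± 0.139 in ES cells, and again at 32221761. Those of +48 were at 32226209 to 32226758, with 0.517 ± 0.153 against 0.454 ± 0.156, and 32224209 to 32224403, with 0.618 ± 0.0663 against 0.529 ± 0.299.

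From R2 the fragments at 32221100 to 32221270 and 32221761 to 32221874 led the erythroid contacts of +44, each with 8.14% of them, at 0.255 ± 0.0794 and 0.254 ± 0.0833 contacts per 1000 pairs, against 0.514 ± 0.239 and 0.524 ± 0.122 in ES cells. At +48 the fragment at 32225058 led again, with 12.1% of the window's erythroid contacts at 0.233 ± 0.0513 against 0.437 ± 0.251, ahead of its neighbour at 32224982 to 32225041, at 0.170 ± 0.121 against 0.442 ± 0.392. In ES cells the leading fragment of +44 was at 32219790, with 0.172 ± 0.0442 in erythroid and 0.776 ± 0.720 in ES cells, followed by that at 32221100, and those of +48 were at 32224209, with 0.186 ± 0.0473 against 0.384 ± 0.0832, and 32225058. The fragment at 32221761 was thus among the leading fragments of +44 from both viewpoints in erythroid cells, and that at 32225058 among those of +48.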

How the data were processed

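The deposited values are whole-number counts per pair of NlaIII fragments and library, per the file headers. The submitters' processing notes name Trim Galore, Bowtie and build mm9, without versions or roles. How duplicates were removed is not stated in those notes or in the labels, so counts may include copies of 1 molecule, and errors cover counting and replicate spread. Off-chromosome coordinates were not used. Each of the 17 libraries was mapped by its labelled name.

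Bins (2 kb), regions, region pairs, bin pairs (4 kb) and the interaction were tested with edgeR 4.0.16 (R 4.3.3, quasi-likelihood, table totals as library sizes), at adjusted p under 0.05, and DESeq2 1.42.0 was run beside it. Standard errors came from the log2 change and its F statistic. Expected counts came from 200 rounds of iterative scaling on 2 kb bins. Fragments within 1 kb of the viewpoint, and pairs of the viewpoint's own element, were left out. The fits were tested on simulated data.

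The named bins, pairs and fragments follow a rule: per viewpoint up to 3 rises and 3 falls of largest change among calls without overlap, the +44 and +48 bins, their pairs with named elements, and the 2 leading fragments per window. Pairs given against expected other than +44 with CTCF -38/-39, sums per region and the comparison with other chromosomes were chosen after their values were seen. Members and lists were chosen with earlier results of these data known. Fits per region, leaving out neighbouring fragments and leaving out the first erythroid libraries were added after seeing the data. Other tools: Python 3.11.15, numpy 2.4.6, pandas 2.3.3, scipy 1.17.1, matplotlib 3.10.9.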

Additional observations from a re-analysis of the deposited data

Results flagged for a closer look

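The change of contacts between the cell types differed between the viewpoints in every part of the stretch, by the interaction term of edgeR's quasi-likelihood test. The change from alpha CTCF exceeded that from R2 by 2.48 ± 0.20 (log2, SE) in the gene-side segment, 2.58 ± 0.31 at CTCF +44, 1.97 ± 0.46 in the middle, 1.97 ± 0.34 at CTCF +48 and 2.68 ± 0.26 in the far-side segment. Scaled to the window the differences were 1.57, 1.68, 1.06, 1.07 and 1.77, all called. On the same scales the difference was 2.45 and 1.54 beyond the stretch, 1.74 and 0.84 in the upstream near flank and 2.25 and 1.34 in the upstream far flank, all called. Over all 150 bins of 2 kb, this direction was called in 78.0% and 54.7%, so the stretch was not alone in it. At Hba-a1 it was -1.09 and -1.999. At Hba-a2 it was -0.46, which was not called (edgeR adjusted p = 0.104), and -1.37.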

How the results depend on the processing

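Each share of contacts in the gene-side segment kept its direction under all alternatives run, with 8.46 to 13.3 percentage points from R2 and 9.27 to 13.1 from alpha CTCF when 1 replicate was left out. The counts of calls moved more, and apart from the changes of scale and test built into the alternatives the cause was not tested. Among bins from R2, 11 were called scaled to chromosome 11, 11 scaled to the window, 11 of 11 as 4 kb bins, 8 with TMM factors (5 higher, 3 lower) and 11 with DESeq2 (9 higher, 2 lower), against 21, all lower. Over all 150 bins from R2, TMM factors called 36 higher and 30 lower, DESeq2 44 and 22, and the scale of chromosome 11 gave 21 and 99. The +44 and +48 bins from R2 reversed with DESeq2 (0.88, 0.99, 0.89 and 0.81 in order) and TMM factors (0.66, 0.73, 0.62 and 0.54). Among bins from alpha CTCF, 14 rose scaled to chromosome 11, 18 with TMM factors, 19 with DESeq2, and 5 to 11 with 1 replicate left out, against 9. Over all 150 bins from alpha CTCF, 19 rose scaled to chromosome 11, 31 with TMM factors and 31 with DESeq2.

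The counts of called pairs in this paragraph and the next show only how calls moved with the setting. Shares over all pairs are given above for the scale of the table and, for pairs inside, for that of the window. For the other settings they are not given, so these counts are no result about the stretch. Pairs across from R2 called numbered 8 with DESeq2, 7 with TMM factors, 26 with each fragment pair once, 6 with the first technical replicates, 4 scaled to chromosome 11, 5 to pairs touching the stretch, 4 to the window and 11 to 25 with 1 replicate left out, against 17. From alpha CTCF they numbered 6 with DESeq2, 5 with TMM factors, 5 with each pair once, 6 scaled to pairs touching the stretch (1 higher, 5 lower) and 1 to 3 with 1 replicate left out, against 3. The gene-side pairs with the near flank from R2 reversed from -0.41 to 0.51 with DESeq2, 0.63 with TMM factors, 0.62 scaled to chromosome 11, 0.96 to pairs touching the stretch and 0.53 to the window. Pairs inside from R2 called numbered 7 with DESeq2, 2 with TMM factors, 7 scaled to chromosome 11, 7 to the window and 12 to 20 with 1 replicate left out, against 21. From alpha CTCF they numbered 12 with DESeq2, 9 with TMM factors, 8 with each pair once, 0 with the first technical replicates, 1 with no count minimum, 6 scaled to chromosome 11, 10 to the window, 0 without the first erythroid libraries and 0 to 5 with 1 replicate left out, against 2. The viewpoint difference called 11 of 11 bins of 4 kb and 1 bin with TMM factors. The +44 pair with CTCF -38/-39 against expected was -0.19 with the first technical replicates and 0.29 to 1.00 with 1 replicate left out.

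Replicate numbers did not pair the samples: deviations of same-numbered replicates correlated at -0.07, -0.04 and 0.09 from R2 and 0.07, -0.26 and -0.15 from alpha CTCF. With a replicate block the calls numbered 20 and 8 for bins, 17 and 2 for pairs across and 15 and 3 for pairs inside, from R2 and alpha CTCF in turn, and the +44 pair against expected was 0.51. Settings without neighbouring fragments and without the first erythroid libraries were chosen after seeing the data.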

Other observations

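The 22 bins differ in how many NlaIII fragments they hold, from 4 in the bin that starts at 32217000 to 29 in the bin that starts at 32201000. The former had the lowest level up to +48 from both viewpoints in both cell types and the latter the highest, so levels of different bins are not compared per fragment here. ES replicate 2 had 58.5% of its pairs touching the stretch inside it from R2 and 54.1% from alpha CTCF, the highest of the 6 replicates in each case.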
